A study of Mus musculus with 28 samples.

Results

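Pyruvate and lactate handling was followed through 10 genes chosen by name: the pyruvate kinase gene Pkm, the lactate dehydrogenase genes Ldha and Ldhb, the lactate carrier genes Slc16a1 and Slc16a3, the mitochondrial pyruvate carrier genes Mpc1 and Mpc2, the pyruvate dehydrogenase subunit gene Pdha1 and the pyruvate dehydrogenase kinase genes Pdk1 and Pdk3. They are 10 of 54532 genes in the count table, all 10 were matched to their Ensembl identifiers, and all 10 passed the filter on low values in every comparison. RNA sequencing was performed on bone marrow-derived macrophages (BMDMs), which are macrophages grown from the marrow of C57/B6JB mice with the growth factor M-CSF. The cultures were washed and given fresh medium with calcium chloride, and then PBS (control), 10 µg/ml of plasma-derived von Willebrand factor (VWF), or 100 ng/ml of lipopolysaccharide (LPS), for 3.5 h or 16 h. VWF is a multimeric plasma glycoprotein of haemostasis, and LPS is the bacterial ligand of Toll-like receptor 4. There were 5 control, 5 VWF and 4 LPS cultures at each time, 28 in all, labelled as biological replicates. Every group carried the same medium and growth factor, the methods give 8 to 12 weeks for the age of the marrow donors and 6 to 8 weeks in a general statement on mice, and how many mice stand behind the cultures was not given in the sources used here.

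In glycolysis, pyruvate kinase makes pyruvate in the cytosol. Lactate dehydrogenase turns pyruvate into lactate, which leaves the cell through monocarboxylate carriers, while pyruvate that is to be oxidised enters the mitochondrion through a carrier made of the Mpc1 and Mpc2 proteins and is converted to acetyl-CoA by the pyruvate dehydrogenase complex, which pyruvate dehydrogenase kinases switch off by phosphorylation. Macrophages activated by LPS are known for a shift toward glycolysis and lactate release.

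The cultures held 41131209 to 77699206 counts each, with a median of 52986574, and the lowest count of any of the 10 genes in any culture was 214 (Ldhb). Levels are given in CPM, the share of a library's counts scaled with TMM factors, which adjust for the composition of each library, and in TPM, which also divides by exon length, where genes are compared with each other. The macrophage label held: 7 of 7 macrophage markers were detected in all groups, and their summed level was 4858 to 25694 CPM. It moved with treatment at 16 h, where it was 13521 to 16238 CPM in 4 controls (4858 CPM in the fifth), 18358 to 25694 CPM with VWF and 6477 to 11906 CPM with LPS. T cell, B cell, erythroid, mast cell and neutrophil markers each summed to at most 8.82 CPM. The 3 fibroblast markers (Col1a1, Col1a2 and Dcn) summed to 15.2 to 381 CPM, with 167 to 381 CPM in the 6 cultures of replicate number 1 and 36.0 to 79.0 CPM in the 6 of number 3. Of the 4 dendritic cell markers, Xcr1 was at 9.92 to 15.7 CPM with VWF at 3.5 h, 12.2 to 28.7 CPM with LPS at either time and 0.241 to 2.22 CPM elsewhere, while the other 3 together stayed at or below 3.68 CPM. Mitochondrially encoded genes took 0.269 to 0.467% of the counts with LPS at 16 h and 0.575 to 0.845% in the controls of that time. The part of these differences in the results was not tested. In bulk RNA, fewer cells of a type and less RNA per cell cannot be told apart.

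Control 16 h replicate 5 stood apart from its group. Its mean correlation with the other 4 controls was 0.915, where those 4 had 0.973 to 0.975, and its summed macrophage markers were 4858 CPM against 13521 to 16238 CPM. LPS 16 h replicate 4 had a mean correlation of 0.952 with its group, where the other 3 had 0.973 to 0.983, and 6477 CPM of macrophage markers against 10392 to 11906 CPM. Results that rest on either culture are given with and without it. The choice of scaling also matters: with library size alone in place of TMM, the median log2 fold change of all genes moved to -0.22 for VWF and -0.54 for LPS against control at 3.5 h, to 0.30 for VWF against LPS at 3.5 h, to -0.57 for LPS against control at 16 h and to 0.44 for VWF against LPS at 16 h, while it was -0.08 for VWF against control at 16 h.

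**Figure D1:**
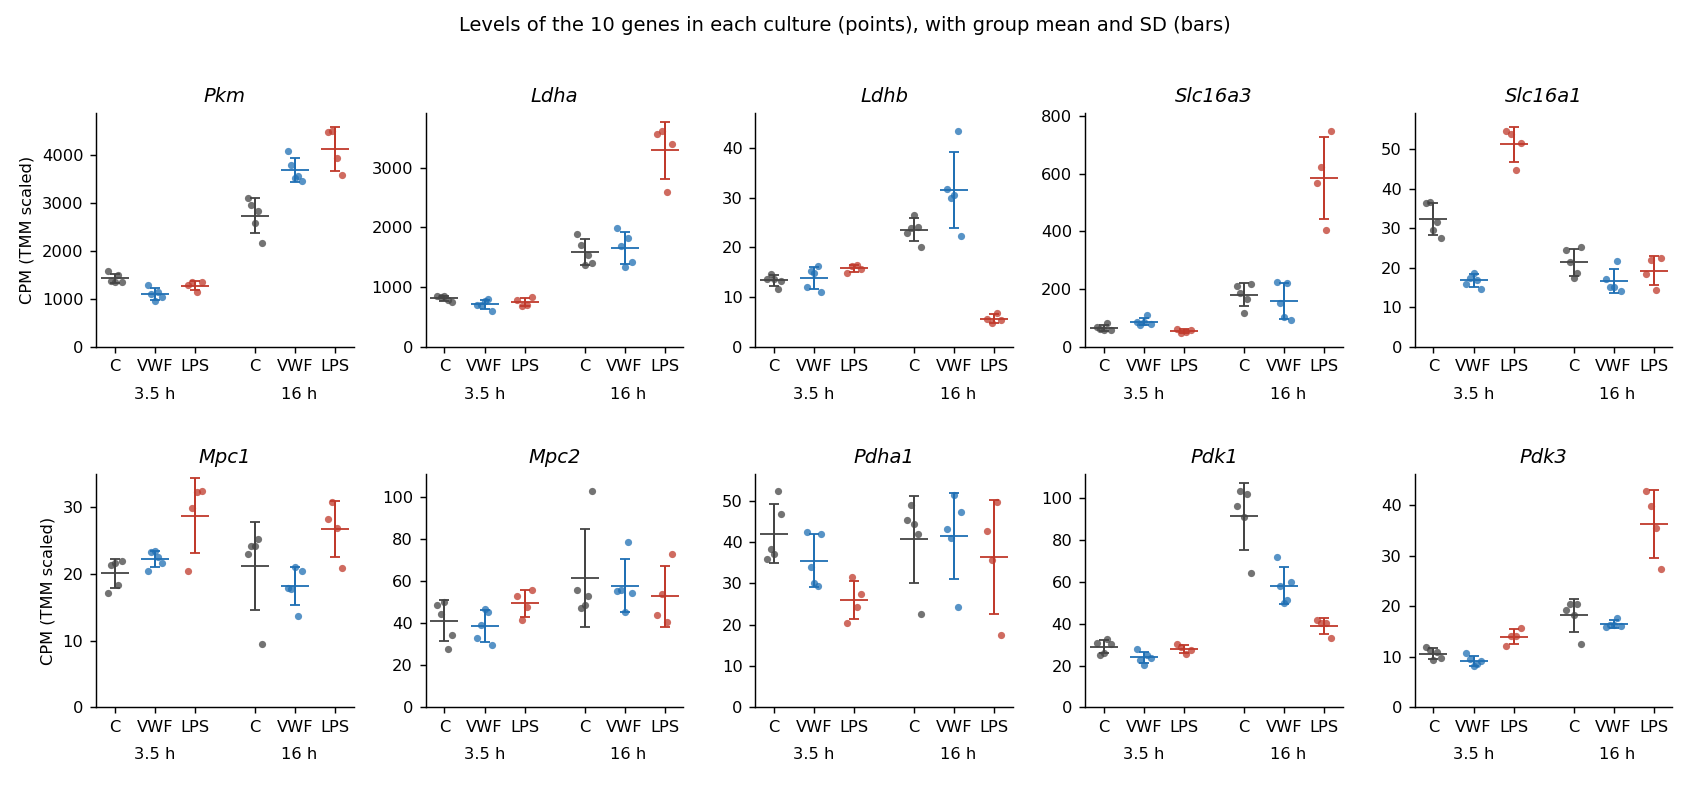
Level of each of the 10 genes (vertical axes: CPM with TMM scaling, from 0) in control (C, grey), VWF (blue) and LPS (red) cultures at 3.5 h and 16 h; points are cultures, horizontal bars the group mean and whiskers 1 SD. Ldha, Slc16a3 and Pdk3 are highest and Ldhb lowest with LPS at 16 h, Slc16a1 is highest with LPS at 3.5 h, and 1 control culture at 16 h lies far from the other 4 for Mpc1, Mpc2 and Pdha1.

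Against the control of the same time, VWF left most of the 10 genes near the control level, while LPS split them at 16 h. At 3.5 h with VWF, 1 gene was higher (Slc16a3) and 2 were lower (Slc16a1 and Pkm), where 22.8% of the 8200 genes tested were higher and 20.8% were lower. None of the 10 passed the study's additional threshold of a 2-fold change, against 14.7% of all genes. At 3.5 h with LPS, 4 genes were higher (Ldhb, Slc16a1, Mpc1 and Pdk3), against 31.8% of all genes, and 1 was lower (Pdha1), against 33.9%. None of the 10 passed 2-fold, against 24.5% of all genes. These splits depend on the scaling: with library size alone 0 of the 10 genes were higher and 6 lower with VWF (15.3% and 37.5% of all genes), and 0 were higher and 6 lower with LPS (14.6% and 62% of all genes). Over the 10 genes the median log2 fold change stood at -0.16 for VWF and at 0.12 for LPS, and over all genes tested at 0.00 and -0.02.

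At 16 h with VWF, 1 gene was higher (Pkm), against 13.1% of the 7798 genes tested, and 1 was lower (Pdk1), against 14.7%. None passed 2-fold, against 8.71% of all genes. Without Control 16 h replicate 5, 4 genes were called, since Mpc1 (log2 fold change -0.42, adjusted p = 0.0150) and Pdk3 (-0.26, adjusted p = 0.00898) were then also lower. At 16 h with LPS, 4 genes were higher (Ldha, Slc16a3, Pdk3 and Pkm), against 27.3% of all genes, and 2 were lower (Ldhb and Pdk1), against 26.4%. Of these, 5 passed 2-fold, against 27.6% of all genes, and only Pkm did not. The same 6 genes were called without Control 16 h replicate 5, with Pdk3 then at 0.92 and 4 genes past 2-fold. Scaling by library size left 0 higher and 2 lower with VWF (Slc16a1 and Pdk1) and 2 higher (Ldha and Slc16a3) and 4 lower (Ldhb, Slc16a1, Mpc2 and Pdk1) with LPS, where 10% and 16.1% and then 15.3% and 52.2% of all genes were higher and lower.

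Set directly against LPS, VWF cultures at 3.5 h had 2 genes higher (Slc16a3 and Pdha1), against 26.3% of all genes, and 3 lower (Slc16a1, Mpc1 and Pdk3), against 24%. Past 2-fold was 1 gene, Slc16a1, against 11.4% of all genes. At 16 h, 2 genes were higher with VWF than with LPS (Ldhb and Pdk1), against 29.5% of all genes, and 4 were lower (Ldha, Slc16a3, Mpc1 and Pdk3), against 31.0%. Past 2-fold were 3 genes, Ldhb, Slc16a3 and Pdk3, against 25.5% of all genes. These comparisons share cultures with those above. By library size, 3 genes were higher and 1 lower at 3.5 h (50.1% and 11.9% of all genes), and 3 higher and 3 lower at 16 h (52% and 17.8%).

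**Figure D2:**
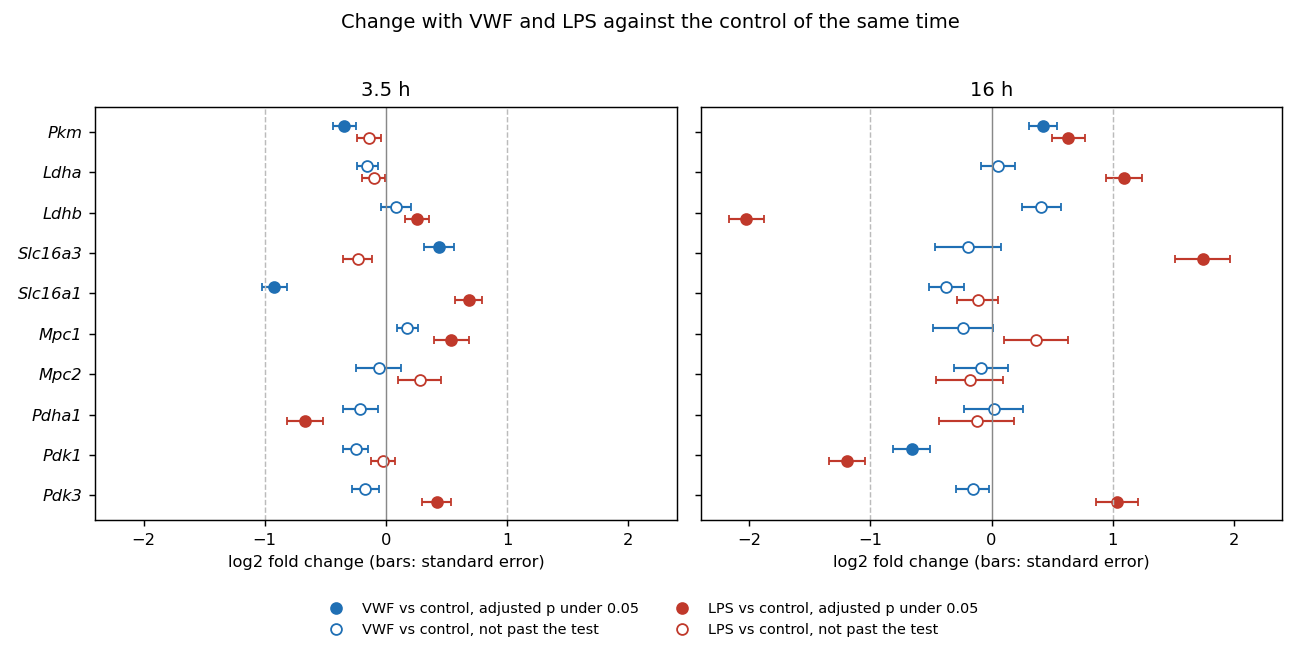
Log2 fold change (horizontal axes, edgeR estimate with its standard error as bars) of each gene with VWF (blue) and LPS (red) against the control of the same time; filled points passed an adjusted p of 0.05, open points did not, and dashed lines mark a 2-fold change. Slc16a1 lies on opposite sides of 0 for the 2 agonists at 3.5 h, and the LPS points spread from -2.02 (Ldhb) to 1.74 (Slc16a3) at 16 h.

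Pkm encodes the M-type pyruvate kinases PKM1 and PKM2, which catalyse the last step of glycolysis, and gene counts do not separate them. The gene lies at chr9:59656368-59679375 on the plus strand (GRCm38), and 15.3% of its exon length is shared with Gm49759 on the same strand. Per length it was, with Ldha, one of the highest of the 10 genes: control cultures at 3.5 h had 928 ± 111 TPM of Pkm and 790 ± 41.9 TPM of Ldha (SD, n = 5), against 12.1 to 40.1 TPM for the mean of each of the other 8.

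At 3.5 h Pkm stood at 1578, 1373, 1352, 1494 and 1363 CPM in the controls, at 1288, 1102, 967, 1135 and 1041 CPM with VWF, and at 1282, 1354, 1136 and 1352 CPM with LPS. Every VWF culture was below every control. The log2 fold change with VWF was -0.34 ± 0.10 (SE, adjusted p = 0.0120), while with LPS it was -0.14 ± 0.10 (adjusted p = 0.216). Scaled by library size, both passed as lower at 3.5 h (VWF -0.56, adjusted p = 0.00109, and LPS -0.66, adjusted p = 8.10e-05). At 16 h the direction with VWF was the opposite one: Pkm was at 3105, 2965, 2594, 2831 and 2176 CPM in the controls, at 4091, 3791, 3535, 3577 and 3455 CPM with VWF, and at 4491, 4517, 3937 and 3582 CPM with LPS. All 9 agonist cultures were above all 5 controls. VWF raised Pkm by 0.42 ± 0.12 on the log2 scale (adjusted p = 0.0209) and LPS by 0.63 ± 0.14 (adjusted p = 0.00298), and VWF and LPS cultures overlapped (difference -0.16 ± 0.11, adjusted p = 0.234). The call with VWF was lost without Control 16 h replicate 3 (adjusted p = 0.0514), VWF 16 h replicate 1 (0.0569) or VWF 16 h replicate 2 (0.0536). It held without Control 16 h replicate 5 (0.35, adjusted p = 0.00717). With library size scaling both Pkm differences at 16 h stayed above 0 but did not pass (VWF 0.36, adjusted p = 0.107, and LPS 0.08, adjusted p = 0.700).

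Ldha encodes the lactate dehydrogenase subunit that predominates in glycolytic tissues, and Ldhb the subunit that predominates in the heart. Ldha lies at chr7:46841475-46855627 on the plus strand and Ldhb at chr6:142490249-142507957 on the minus strand. Of all 100-base windows of the Ldhb transcripts, 6.44% are shared with its pseudogene Gm5514, and 0.59% of those of Ldha with other genes. At 3.5 h Ldha was at 859, 828, 844, 780 and 743 CPM in the controls, 706, 708, 761, 800 and 604 CPM with VWF, and 782, 679, 699 and 828 CPM with LPS. The groups overlapped, and neither agonist passed the test (VWF -0.15 ± 0.09, adjusted p = 0.190, and LPS -0.10 ± 0.09, adjusted p = 0.375). With library size scaling both differences passed as lower (-0.37 and -0.62).

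At 16 h the LPS cultures stood clear of all others. The level was 1894, 1701, 1374, 1537 and 1405 CPM in the controls, 1990, 1686, 1344, 1827 and 1427 CPM with VWF, and 3562, 3621, 2596 and 3392 CPM with LPS. LPS raised Ldha 2.14-fold (log2 1.09 ± 0.15, adjusted p = 0.000154), whereas the VWF and control cultures spanned almost the same range (0.06 ± 0.14, adjusted p = 0.8291). The direct difference between VWF and LPS was -0.99 ± 0.15 (adjusted p = 0.000279). Scaling by library size brought these to 0.54 (adjusted p = 0.0154) and -0.55 (adjusted p = 0.00447), below 2-fold.

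Ldhb moved the other way with LPS at 16 h. At 3.5 h it was at 13.6, 14.7, 13.7, 11.6 and 13.2 CPM in the controls, 12.0, 15.4, 14.8, 16.3 and 11.01 CPM with VWF, and 14.8, 16.2, 16.5 and 15.6 CPM with LPS. The LPS cultures lay just above the highest control, and the log2 difference of 0.26 ± 0.10 (adjusted p = 0.0418) turned to -0.26 (adjusted p = 0.0248) with library size scaling. It was also lost with all cultures in one fit, without the filter on low values, and without any 1 of Control 3.5 h replicate 4 (adjusted p = 0.0541) and LPS 3.5 h replicates 2 (0.0826), 3 (0.103) and 4 (0.0727). At 16 h Ldhb was at 23.0, 23.97, 26.6, 24.2 and 20.2 CPM in the controls, 31.7, 30.0, 30.6, 43.5 and 22.3 CPM with VWF, and 5.66, 4.72, 6.81 and 5.39 CPM with LPS. Every LPS culture was far below every other culture of either time. LPS lowered Ldhb 4.07-fold (log2 -2.02 ± 0.14, adjusted p = 2.11e-06). In VWF cultures 4 of 5 were above the highest control, but the difference of 0.41 ± 0.16 did not pass (adjusted p = 0.0813), except without VWF 16 h replicate 5 (0.52, adjusted p = 0.0176), with DESeq2 (adjusted p = 0.0409) or with all cultures in one fit. Against LPS, VWF cultures held 5.60-fold more Ldhb (log2 2.49 ± 0.20, adjusted p = 3.26e-06), and of the 10 genes this was the largest difference between groups of the same time.

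The TPM ratio of Ldha to Ldhb in 1 culture does not depend on how the library is scaled. Its geometric mean was 28.8 in controls, 24.6 with VWF and 22.4 with LPS at 3.5 h, and 31.7 in controls, 25.1 with VWF and 277 with LPS at 16 h. The 4 LPS cultures at 16 h ranged from 181 to 364, and the other 24 from 19.9 to 39.1. Exact two-sided permutation tests, adjusted over the 24 tests of 4 ratios in 6 comparisons, gave an 8.72-fold higher ratio with LPS than in controls at 16 h (p = 0.00794, adjusted p = 0.0173). That p is the smallest that groups of 5 and 4 or of 5 and 5 allow. At 3.5 h the ratio was 1.29-fold lower with LPS (p = 0.00794, adjusted p = 0.0173 by the exact test), and with VWF it was 1.17-fold lower at 3.5 h (p = 0.0317, adjusted p = 0.0544 by the exact test) and 1.26-fold lower at 16 h (p = 0.0873, adjusted p = 0.140 by the exact test), neither of which passed. The 1.29-fold difference with LPS did not pass without any 1 control of 3.5 h (adjusted p = 0.0527 to 0.0571 by the exact test).

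**Figure D3:**
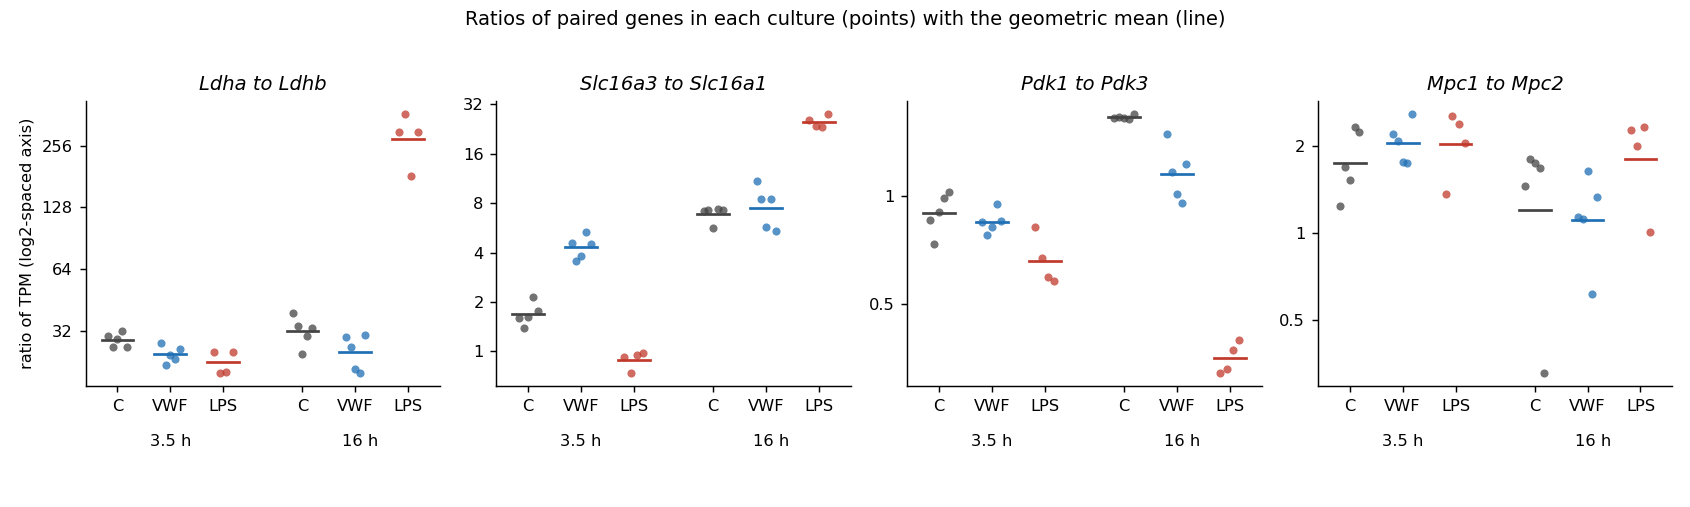
Ratio of TPM of 4 gene pairs (vertical axes, log2-spaced) in each culture (points) with the geometric mean of each group (line), for control (C, grey), VWF (blue) and LPS (red). Ldha to Ldhb stands apart only with LPS at 16 h (181 to 364), Slc16a3 to Slc16a1 is split 3 ways at 3.5 h, Pdk1 to Pdk3 falls from control to VWF to LPS at 16 h, and Mpc1 to Mpc2 overlaps among the groups of each time.

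Slc16a3 encodes MCT4, the carrier through which glycolytic cells release lactate, and Slc16a1 encodes MCT1, a carrier of higher affinity that can move lactate in either direction. Slc16a3 lies at chr11:120948480-120960868 and Slc16a1 at chr3:104638668-104658462, both on the plus strand and with no overlap or shared windows. At 3.5 h the 2 agonists moved Slc16a1 in opposite directions. It was at 36.2, 36.7, 29.6, 31.6 and 27.6 CPM in the controls, at 16.0, 17.5, 18.7, 17.0 and 14.6 CPM with VWF, and at 54.6, 53.8, 44.8 and 51.6 CPM with LPS. All VWF cultures were below and all LPS cultures above the controls. VWF lowered Slc16a1 1.89-fold (log2 -0.92 ± 0.10, adjusted p = 1.85e-05) and LPS raised it 1.60-fold (0.68 ± 0.11, adjusted p = 0.000258), although with library size scaling the LPS difference shrank to 0.16 and did not pass (adjusted p = 0.210). Between VWF and LPS the level differed 3.01-fold (log2 -1.59 ± 0.10, adjusted p = 7.66e-07), and this held with library size scaling (-1.30, adjusted p = 3.42e-06).

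By 16 h the Slc16a1 groups overlapped. Controls held 24.4, 21.4, 17.5, 18.6 and 25.2 CPM, VWF cultures 17.1, 15.0, 15.1, 21.7 and 14.2 CPM, and LPS cultures 18.4, 21.9, 14.4 and 22.4 CPM. Neither VWF (-0.37 ± 0.14, adjusted p = 0.0816) nor LPS (-0.12 ± 0.17, adjusted p = 0.597) passed the test, but VWF did without VWF 16 h replicate 4 (-0.48, adjusted p = 0.0223) and with all cultures in one fit. Scaled by library size, both passed as lower (VWF -0.43, adjusted p = 0.0261, and LPS -0.66, adjusted p = 0.00281).

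Slc16a3 followed another order. At 3.5 h it was at 69.0, 61.1, 57.3, 81.7 and 58.6 CPM in the controls, 87.6, 74.8, 86.2, 109 and 79.0 CPM with VWF, and 60.6, 47.7, 51.2 and 60.1 CPM with LPS. VWF cultures were mostly above the controls, with overlap, and LPS cultures at or below them. The log2 difference was 0.44 ± 0.12 with VWF (adjusted p = 0.0128; with library size scaling 0.22, adjusted p = 0.172) and -0.23 ± 0.12 with LPS (adjusted p = 0.108; with library size scaling -0.76, adjusted p = 0.000327). The call with VWF was also lost with all cultures in one fit. At 16 h the controls held 210, 187, 119, 166 and 219 CPM, VWF cultures 223, 152, 104, 221 and 92.6 CPM, and LPS cultures 569, 622, 405 and 750 CPM. Every LPS culture was above every other culture, and the VWF cultures were spread wider than the controls around the same level. LPS raised Slc16a3 3.34-fold (log2 1.74 ± 0.22, adjusted p = 0.000126), the largest rise of the 10 genes in that comparison, and with VWF the value was -0.19 ± 0.27 (adjusted p = 0.679).

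The ratio of Slc16a3 to Slc16a1, in TPM, was 1.68 in controls, 4.31 with VWF and 0.890 with LPS at 3.5 h (geometric means). VWF cultures, at 3.55 to 5.32, and LPS cultures, at 0.737 to 0.970, lay on either side of the controls, at 1.38 to 2.15. The ratio was 2.56-fold higher with VWF, 1.89-fold lower with LPS and 4.84-fold higher with VWF than with LPS, and each had the smallest exact permutation p (p = 0.00794, adjusted p = 0.0173). The difference of LPS from control did not pass without any 1 control (adjusted p = 0.0527 to 0.0571 by the exact test). That of VWF from LPS did not pass without any 1 VWF culture (0.0571 to 0.0623). At 16 h it was 6.92 in controls, 7.53 with VWF and 25.1 with LPS. The 3.63-fold rise with LPS passed the exact test (p = 0.00794, adjusted p = 0.0173) and the difference with VWF did not (1.09-fold, p = 0.556, adjusted p = 0.606).

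Mpc1 and Mpc2 encode the subunits of the mitochondrial pyruvate carrier, both needed for transport. Mpc1 lies at chr17:8282904-8297661 and Mpc2 at chr1:165460637-165481214, both on the plus strand. Mpc1 counts are uncertain, since 23.1% of its exon length overlaps 4930506C21Rik on the opposite strand, 16.6% of its 100-base windows are shared with its pseudogene Mpc1-ps, and the strand setting of the counting is not given in the sources used here. At 3.5 h Mpc1 was at 17.1, 21.4, 21.7, 18.4 and 21.9 CPM in the controls, 20.5, 23.3, 23.5, 22.6 and 21.7 CPM with VWF, and 20.5, 29.9, 32.3 and 32.4 CPM with LPS. In 3 of 4 LPS cultures it was above all controls and all VWF cultures. The log2 difference was 0.54 ± 0.14 with LPS (adjusted p = 0.00670; with library size scaling 0.01, adjusted p = 0.932) and 0.18 ± 0.09 with VWF (adjusted p = 0.128). VWF against LPS gave -0.34 ± 0.13 (adjusted p = 0.0463), a call that stayed past the test in 1 of 9 fits that left out 1 culture: it was lost without LPS 3.5 h replicate 2, 3 or 4 or any VWF culture, at adjusted p values up to 0.131, and with library size scaling (-0.05, adjusted p = 0.717).

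At 16 h Mpc1 was at 23.0, 24.2, 24.2, 25.3 and 9.51 CPM in the controls, 17.9, 17.7, 21.01, 13.8 and 20.5 CPM with VWF, and 28.3, 30.8, 27.0 and 20.8 CPM with LPS. The fifth control lay below all other cultures. With it, neither VWF (-0.24 ± 0.25, adjusted p = 0.562) nor LPS (0.37 ± 0.26, adjusted p = 0.270) passed against control; without it, VWF passed as lower (-0.42, adjusted p = 0.0150) and LPS did not (0.18, adjusted p = 0.204). VWF cultures held less Mpc1 than LPS cultures, with overlap (-0.55 ± 0.16, adjusted p = 0.0112; with library size scaling -0.11, adjusted p = 0.607). Mpc2 passed in none of the 6 comparisons between treatments, with log2 differences from -0.33 (VWF against LPS at 3.5 h, adjusted p = 0.0845, called without LPS 3.5 h replicate 2 or VWF 3.5 h replicate 3) to 0.28, and its levels ran from 27.8 to 55.7 CPM at 3.5 h and from 40.7 to 103 CPM at 16 h. Scaled by library size, Mpc2 passed at 16 h for LPS against control (-0.70, adjusted p = 0.0129) and for VWF against LPS (0.58, adjusted p = 0.00977). In none of the 6 comparisons did the ratio of Mpc1 to Mpc2 pass the exact permutation test, the smallest p being 0.0952 (adjusted p = 0.143).

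Pdha1 encodes the E1 alpha subunit of pyruvate dehydrogenase, the subunit that the kinases phosphorylate. It lies at chrX:160122209-160138413 on the minus strand, and 16.1% of its exon length overlaps Map3k15 on the opposite strand, so that its counts carry the same uncertainty about strand. At 3.5 h Pdha1 was at 35.8, 38.4, 37.1, 52.3 and 46.7 CPM in the controls, 42.5, 33.9, 30.1, 29.4 and 41.9 CPM with VWF, and 20.5, 31.5, 24.4 and 27.6 CPM with LPS. All LPS cultures were below all controls. LPS lowered it 1.59-fold (log2 -0.67 ± 0.15, adjusted p = 0.00216), and the value with VWF was -0.21 ± 0.15 (adjusted p = 0.280). Scaled by library size, both passed as lower (LPS -1.20, adjusted p = 4.27e-05, and VWF -0.43, adjusted p = 0.0496). VWF cultures held more Pdha1 than LPS cultures (0.48 ± 0.16, adjusted p = 0.0302; with library size scaling 0.77, adjusted p = 0.00344), a call that was lost without LPS 3.5 h replicate 1 (0.0853), 3 (0.0776) or 4 (0.0548) or VWF 3.5 h replicate 1 (0.0751) or 5 (0.0688). It was also lost with the replicate block (adjusted p = 0.108). At 16 h all 3 groups overlapped, with means of 40.7 ± 10.4 CPM in controls (SD, n = 5), 41.4 ± 10.4 CPM with VWF (n = 5) and 36.4 ± 13.8 CPM with LPS (n = 4), and no comparison passed.

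Pdk1 and Pdk3 encode kinases that inactivate the complex, and the 2 genes parted with LPS at 16 h. Pdk1 lies at chr2:71873224-71903858 on the plus strand and Pdk3 at chrX:93764607-93832201 on the minus strand, with no overlap or shared windows. At 3.5 h Pdk1 was at 30.9, 25.3, 26.0, 32.6 and 30.2 CPM in the controls, 27.7, 22.7, 20.4, 24.9 and 23.8 CPM with VWF, and 30.2, 28.9, 25.7 and 27.7 CPM with LPS. The groups overlapped and no comparison passed (VWF -0.25 ± 0.11, adjusted p = 0.0779, and LPS -0.02 ± 0.10, adjusted p = 0.839), although VWF did without VWF 3.5 h replicate 1 (-0.32, adjusted p = 0.0290) and with DESeq2 (adjusted p = 0.0484). Scaled by library size, both passed as lower (VWF -0.47, adjusted p = 0.00804, and LPS -0.55, adjusted p = 0.00113). At 16 h it was at 96.0, 103, 90.8, 102 and 64.2 CPM in the controls, 71.8, 57.8, 50.0, 51.5 and 59.9 CPM with VWF, and 41.9, 40.2, 40.2 and 33.2 CPM with LPS. The order was control above VWF above LPS, and the only control within the VWF range was replicate 5. VWF lowered Pdk1 1.58-fold (log2 -0.66 ± 0.15, adjusted p = 0.00777) and LPS 2.29-fold (-1.19 ± 0.15, adjusted p = 9.79e-05), and VWF cultures stayed above LPS cultures (0.59 ± 0.13, adjusted p = 0.00249). Without Control 16 h replicate 5 both falls were larger (-0.76 and -1.30).

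Pdk3 at 3.5 h was at 11.9, 11.3, 9.47, 10.9 and 9.70 CPM in the controls, 10.8, 9.56, 8.19, 8.62 and 9.22 CPM with VWF, and 12.1, 14.2, 14.2 and 15.6 CPM with LPS. LPS cultures lay above all others, and the log2 difference of 0.42 ± 0.12 (adjusted p = 0.00870) turned to -0.11 (adjusted p = 0.418) with library size scaling; the value with VWF was -0.17 ± 0.11 (adjusted p = 0.255). Against LPS, VWF cultures differed by -0.57 ± 0.12 on the log2 scale (adjusted p = 0.00284; with library size scaling -0.28, adjusted p = 0.0892). At 16 h Pdk3 was at 19.3, 20.6, 18.2, 20.4 and 12.5 CPM in the controls, 15.9, 16.4, 16.2, 17.8 and 16.1 CPM with VWF, and 42.8, 39.9, 35.4 and 27.4 CPM with LPS. Every LPS culture was above every other culture. LPS raised Pdk3 2.05-fold (log2 1.04 ± 0.17, adjusted p = 0.000736; with library size scaling 0.48, adjusted p = 0.0926). The value with VWF was -0.15 ± 0.14 (adjusted p = 0.478), and without Control 16 h replicate 5 it was -0.26 (adjusted p = 0.00898).

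In TPM the ratio of Pdk1 to Pdk3 was 0.896 in controls, 0.848 with VWF and 0.661 with LPS at 3.5 h, and 1.65, 1.15 and 0.355 in the same order at 16 h (geometric means). The 5 controls at 16 h ranged from 1.64 to 1.69, so that replicate 5, low in both genes, kept the ratio of its group. LPS lowered the ratio 4.65-fold and VWF 1.43-fold at 16 h, and the agonists differed 3.25-fold, each with the smallest exact permutation p (p = 0.00794, adjusted p = 0.0173). At 3.5 h only the 1.28-fold difference between VWF and LPS passed the exact test (p = 0.0159, adjusted p = 0.0317), and it was lost without any 1 of the VWF cultures or of LPS replicates 2, 3 and 4. Since leaving out 1 control raises the smallest p, the 3 LPS ratios that differed from control at 16 h had an adjusted p of 0.0508 by the exact test without Control 16 h replicate 5, with log2 differences of 3.14, 1.88 and -2.21 for Ldha to Ldhb, Slc16a3 to Slc16a1 and Pdk1 to Pdk3. Without any 1 of the other controls that adjusted p was 0.0544. It was also 0.0544 for Pdk1 to Pdk3 between VWF and LPS without any 1 VWF culture of 16 h.

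Of the 5 genes that passed 2-fold with LPS at 16 h, 3 rose and 2 fell, and their promoters are shown for that contrast. The RefSeq promoter table (GRCm38.p6) held an entry for all 10 genes, and the 250 bases before each start site were searched on both strands for ACGTG, a form of the core of the hypoxia response element, for CACGTG, an E-box that contains ACGTG on either strand, and for a core of the interferon-stimulated response element (2 GAAA blocks parted by any 2 bases). The form GCGTG of the hypoxia core was not searched. ACGTG was found in 5 of the 14 entries of these genes (35.7%; 1 entry each of Ldha, Slc16a3, Slc16a1, Pdk3 and Pkm), against 16.6% of all 32851 entries, CACGTG in 2 of 14 (14.3%; Ldha and Slc16a1), against 6.02%, and the last in none, against 2.98%. Ldha and Slc16a3, which rose most, are set beside Ldhb and Pdk1, which fell; capitals mark ACGTG on either strand, and bases annotated as an exon of the gene were left off, which removed 14 bases and a second match before the start site of Slc16a3. The windows are chr7:46845554-46845803 (plus strand) for Ldha, chr11:120948817-120949052 (plus strand) for Slc16a3, chr6:142507958-142508207 (minus strand) for Ldhb and chr2:71872974-71873223 (plus strand) for Pdk1.
Ldha: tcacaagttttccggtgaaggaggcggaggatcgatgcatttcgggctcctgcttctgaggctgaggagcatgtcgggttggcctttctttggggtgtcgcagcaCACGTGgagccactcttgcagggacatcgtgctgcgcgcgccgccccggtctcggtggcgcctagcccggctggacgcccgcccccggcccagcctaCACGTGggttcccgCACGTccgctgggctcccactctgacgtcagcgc
Slc16a3: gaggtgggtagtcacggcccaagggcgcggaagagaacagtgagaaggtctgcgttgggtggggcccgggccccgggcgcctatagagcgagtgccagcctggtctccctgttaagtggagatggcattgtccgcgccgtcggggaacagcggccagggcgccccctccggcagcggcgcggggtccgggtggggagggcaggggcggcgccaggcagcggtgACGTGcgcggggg
Ldhb: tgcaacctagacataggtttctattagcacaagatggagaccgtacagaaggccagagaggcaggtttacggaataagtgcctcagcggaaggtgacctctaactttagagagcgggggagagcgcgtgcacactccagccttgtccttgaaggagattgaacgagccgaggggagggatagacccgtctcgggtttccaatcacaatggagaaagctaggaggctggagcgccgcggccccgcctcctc
Pdk1: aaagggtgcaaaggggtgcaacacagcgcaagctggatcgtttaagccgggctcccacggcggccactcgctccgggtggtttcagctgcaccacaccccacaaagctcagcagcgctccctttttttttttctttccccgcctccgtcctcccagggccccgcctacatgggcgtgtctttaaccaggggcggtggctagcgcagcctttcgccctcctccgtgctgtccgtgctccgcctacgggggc
Ldha has 3 separate stretches with ACGTG, 2 of them CACGTG, and the windows of Ldhb and Pdk1 have no ACGTG. Both of these windows do hold GCGTG, the form that was not searched. The match of Pdk3 starts 53 bases before the start site and runs into an annotated exon, so it is not shown. A match is a description of letters, not of binding.

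Between 3.5 h and 16 h the genes changed in the controls as well, which sets the scale for the agonists. In controls 7 of 10 genes were higher at 16 h (25.5% of all 8867 genes) and 1 was lower (23.6%), in VWF cultures 7 were higher (30.6%) and 0 lower (30.7%; 0 also at an unadjusted edgeR p under 0.05 and with DESeq2), and in LPS cultures 5 were higher (30.8%) and 2 lower (32.1%). The median log2 change of the 10 genes was 0.80 in controls, 0.85 with VWF and 0.48 with LPS, where all genes had 0.02, 0.02 and -0.02. In controls the risers were Pdk1 (1.65 ± 0.12), Slc16a3 (1.46 ± 0.22), Ldha (0.96 ± 0.12), Pkm (0.93 ± 0.10), Ldhb (0.82 ± 0.14), Pdk3 (0.77 ± 0.12) and Mpc2 (0.58 ± 0.21), and Slc16a1 fell (-0.59 ± 0.13). The rise of Mpc2 did not pass without Control 16 h replicate 5 (0.31, adjusted p = 0.176), Control 3.5 h replicate 4 (0.46, adjusted p = 0.0889) or Control 3.5 h replicate 5 (0.52, adjusted p = 0.0679).

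VWF cultures rose in the same 7 genes, by 1.74 ± 0.10 for Pkm (adjusted p = 1.08e-13), 1.28 ± 0.12 for Pdk1, 1.21 ± 0.12 for Ldha, 1.19 ± 0.14 for Ldhb, 0.86 ± 0.21 for Slc16a3, 0.83 ± 0.12 for Pdk3 and 0.58 ± 0.21 for Mpc2. Mpc2 was not called without VWF 16 h replicate 4 (adjusted p = 0.0857), VWF 3.5 h replicate 1 (0.0549) or VWF 3.5 h replicate 5 (0.0639). Without Control 16 h replicate 5, Mpc1 was also called lower with time in VWF cultures (-0.30, adjusted p = 0.0313). Slc16a1 stood near its early low level (-0.01 ± 0.13, adjusted p = 0.943). LPS cultures had the widest changes: Slc16a3 rose by 3.42 ± 0.26 (10.7-fold, adjusted p = 2.07e-11), Ldha by 2.14 ± 0.13, Pkm by 1.69 ± 0.11, Pdk3 by 1.38 ± 0.14 and Pdk1 by 0.47 ± 0.13, while Ldhb fell by 1.48 ± 0.16 and Slc16a1 fell by 1.41 ± 0.15. Ldhb was thus the gene that rose in controls and with VWF and fell with LPS. Without LPS 16 h replicate 4, which held 17.6 CPM of Pdha1 against 35.6 to 49.8 CPM, Pdha1 was called higher with time in LPS cultures (0.71, adjusted p = 0.0101; with it 0.49, adjusted p = 0.106). The 3 time courses come from separate cultures at each time.

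**Figure D4:**
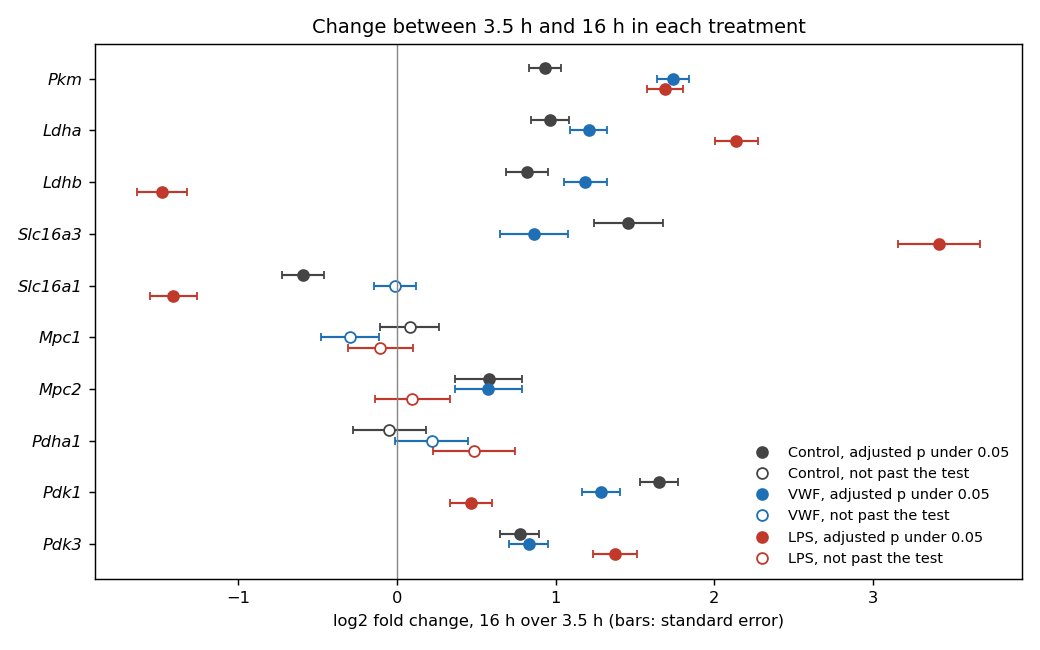
Log2 fold change between 3.5 h and 16 h (horizontal axis, edgeR estimate from all 28 cultures with its standard error as bars) of each gene in control (grey), VWF (blue) and LPS (red) cultures; filled points passed an adjusted p of 0.05. Controls and VWF cultures lie close for most genes, and LPS parts from both for Ldha, Ldhb, Slc16a3, Slc16a1, Pdk1 and Pdk3.

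Whether an agonist's effect differed between the times was tested with an interaction term. For VWF, 2 of 10 genes had a more positive effect at 16 h than at 3.5 h (15.6% of all genes) and 0 a more negative one (17.8%; 1 at an unadjusted edgeR p under 0.05, 0 with DESeq2). These were Pkm (0.80 ± 0.14, adjusted p = 4.58e-05) and Slc16a1 (0.58 ± 0.19, adjusted p = 0.0164), both of which VWF lowered at 3.5 h. Without Control 16 h replicate 5 the count was 4, with Mpc1 (-0.57, adjusted p = 0.0127) and Pdk1 (-0.48, adjusted p = 0.00927) added. For LPS, 4 genes had a more positive effect at 16 h (25.7% of all genes) and 3 a more negative one (27.1%). The first were Slc16a3 (1.96 ± 0.32), Ldha (1.18 ± 0.17), Pkm (0.76 ± 0.15) and Pdk3 (0.60 ± 0.18), and the others Ldhb (-2.30 ± 0.21), Pdk1 (-1.19 ± 0.18) and Slc16a1 (-0.82 ± 0.20). Without LPS 16 h replicate 4, Pdha1 was called too (0.76, adjusted p = 0.0342).

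Over the 28 cultures, and as a description only because the cultures share treatments, Ldha correlated most with Slc16a3 among the 10 genes (Pearson r = 0.95, Spearman rho = 0.86), followed by Pkm (0.93 and 0.90) and Pdk3 (0.90 and 0.83). Ldhb had no r above 0.49 with any other of the 10, and Mpc1 and Mpc2 had r = -0.44 (rho = -0.26). Control 16 h replicate 5 was the lowest of all cultures in Mpc1 (9.51 CPM) and the highest in Mpc2 (103 CPM). The correlation without it was not tested. Among all 8867 genes at 10 TPM or more in at least 1 culture, the 2 most like Ldha were the glycolytic enzyme gene Tpi1 (r = 0.98) and the glycogen synthase gene Gys1 (0.97), and the 2 most like Slc16a3 were Gys1 (0.95) and Bnip3 (0.95). Those most like Pkm were Gm6560 and Pgk1 (both 0.98), and those most like Mpc2 the ATP synthase gene Atp5d and the respiratory chain gene Ndufs6 (both 0.98). For Ldhb, Slc16a1, Pdha1, Pdk1 and Mpc1 the highest r was 0.94 for Ldhb (Tram1, then Ldlrad3 at 0.93), 0.92 for Slc16a1 (Tal1, then Rgcc at 0.91), 0.95 for Pdha1 (Map3k3, then Arhgef11 at 0.94), 0.94 for Pdk1 (Acsf3, then Eogt at 0.93) and 0.90 for Mpc1 (Tbrg1, then its own pseudogene Mpc1-ps at 0.89).

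The neighbouring steps of the pathway were read from 4 lists. Of 10 genes of lower glycolysis, 9 were tested at 3.5 h and 10 at 16 h. With VWF 1 was higher and 2 were lower at 3.5 h (22.8% and 20.8% of all genes), and 0 were called in either direction at 16 h (13.1% and 14.7%), by edgeR, by DESeq2 or at an unadjusted edgeR p under 0.05. With LPS 1 was higher and 3 lower at 3.5 h (31.8% and 33.9% of all genes), among them the phosphoglycerate mutase gene Pgam1 (-1.23 ± 0.20, adjusted p = 0.000236), and 3 were higher and 2 lower at 16 h (27.3% and 26.4%). The 2-fold changes at 16 h were in isoforms of low level. The enolase gene Eno2 rose (27.0 against 12.8 CPM, 1.11 ± 0.22, adjusted p = 0.00184). Eno3 (3.82 against 8.69 CPM, -1.15 ± 0.18, adjusted p = 0.000398) and the aldolase gene Aldoc (5.55 against 31.8 CPM, -2.48 ± 0.16, adjusted p = 1.08e-06) fell. Eno3 did not reach the filter at 3.5 h, at means of 3.17 to 4.37 CPM. It entered the comparison of LPS with control at 16 h only through the controls, where it was high. Eno1 (1623 against 1320 CPM, 0.34 ± 0.27, adjusted p = 0.332) and Aldoa (2624 against 1958 CPM, 0.46 ± 0.19, adjusted p = 0.0671), at far higher levels, did not pass. The list's median log2 fold change with LPS at 16 h was 0.44, against -0.03 for all genes.

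Eno2 was also higher with VWF than with LPS at 3.5 h (1.17 ± 0.12, adjusted p = 1.98e-05) and lower at 16 h (-1.55 ± 0.16, adjusted p = 2.49e-05), and Aldoc (2.29 ± 0.16) and Eno3 (1.15 ± 0.14) were higher with VWF than with LPS at 16 h. Eno3 entered that comparison only through the VWF cultures, where it was high. With time, 8 of the 10 lower glycolysis genes rose and 1 fell in controls (25.5% and 23.6% of all genes), as in VWF cultures (30.6% and 30.7%), and 7 rose and 1 fell with LPS (30.8% and 32.1%). Of 10 further genes of the pyruvate dehydrogenase complex and its regulators, 4 to 6 were tested. The phosphatase gene Pdp1, whose product reactivates the complex, was lower with VWF at 3.5 h (6.74 against 17.8 CPM, log2 -1.37 ± 0.09, adjusted p = 1.39e-07) and, by less than 2-fold, with LPS (12.1 CPM, -0.54 ± 0.11, adjusted p = 0.000992). Pdp1 entered both of these comparisons only through the controls, where it was high, since no VWF or LPS culture of 3.5 h reached 10 TPM. At 16 h neither VWF (0.14 ± 0.09, adjusted p = 0.280) nor LPS (-0.03 ± 0.10, adjusted p = 0.830) passed for Pdp1. At 16 h edgeR called 0 genes of that list with either agonist against control, where DESeq2 called 2 with LPS, and 1 with LPS had an unadjusted edgeR p under 0.05.

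Of 9 other lactate dehydrogenase and carrier genes only Bsg and Emb, which encode chaperones of the carriers, were tested. Emb was lower with LPS at 16 h (-0.91 ± 0.11, adjusted p = 9.45e-05) and fell with time in controls (-0.56 ± 0.16, adjusted p = 0.00467), VWF cultures (-0.89 ± 0.16, adjusted p = 2.61e-05) and LPS cultures (-1.58 ± 0.18, adjusted p = 2.84e-08). Bsg was higher with LPS at 3.5 h (0.35 ± 0.13, adjusted p = 0.0360). With time Bsg rose in controls (0.62 ± 0.13, adjusted p = 0.000399), VWF cultures (0.72 ± 0.13, adjusted p = 4.07e-05) and LPS cultures (0.48 ± 0.15, adjusted p = 0.00636). Of 8 other pyruvate enzyme genes, 2 or 3 were tested. With LPS at 16 h the 2 that were tested were lower (26.4% of all genes). Of these Pck2, the mitochondrial phosphoenolpyruvate carboxykinase, passed 2-fold (21.1 against 60.4 CPM, -1.48 ± 0.14, adjusted p = 1.58e-05). The malic enzyme gene Me1 did not reach the filter there. Its mean was higher with LPS (15.9 CPM) than in controls (11.1 CPM), a difference that was not tested. With VWF at 16 h, Pck2 was lower (-0.56 ± 0.13, adjusted p = 0.0102) and Me1 higher (0.73 ± 0.11, adjusted p = 0.000565). Me1 entered that comparison only through the VWF cultures, where it was high, since no control culture of 16 h reached 10 TPM.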

How the data were processed

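Per the methods, the authors sequenced paired-end libraries, mapped the reads with STAR to GRCm38 (mm10) and quantified them per gene. The deposited table holds raw counts per Ensembl gene for 28 cultures, with no normalization, and no source used here names the annotation or the strand setting. Symbols, exon lengths and overlaps came from GENCODE M21, which matched 54495 of 54532 genes. The 10 genes and the pathway lists were chosen with earlier results of these data known. Genes at 10 TPM or more in at least 1 culture of a comparison were tested with edgeR 4.0.16 (R 4.3.3; TMM factors, robust quasi-likelihood test, standard error as the log2 fold change over the square root of F), with Benjamini-Hochberg adjustment over all genes tested and a threshold of 0.05. DESeq2 1.42.0 was an alternative, as were other scalings, filters, samples and leaving out each culture. The 6 comparisons between treatments were fitted on their own groups, and the time comparisons and interactions on all 28 cultures. Ratios of TPM were compared with exact permutation tests. The rule for named genes was all 10 members, listed pathway genes past 2-fold, and the 2 genes most like each member (those of Pdk3 are not reported here); values of Bsg and Me1, and values under 2-fold of Emb, Pck2 and Pdp1, were added after their values were seen. Same-numbered cultures deviated together in all pairs only for VWF against LPS at 16 h (4 pairs, correlations 0.16 to 0.781), where the replicate block changed no call among the 10 genes. The tests were checked on simulated counts, and no 2 replicates differed by less than sampling noise (lowest chi-square per degree of freedom 17.1 over 52 pairs).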

Additional observations from a re-analysis of the deposited data

Results flagged for a closer look

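In 60 sets of cultures (10 genes in 6 groups), 4 had 1 culture far from the others by Dixon's test, which chance does in about 1 in 20 sets. In Control 16 h replicate 5, Mpc1 was at 9.51 CPM where the other 4 cultures had 23.0 to 25.3 CPM, Mpc2 was at 103 CPM against 47.1 to 55.7 CPM, and Pdha1 was at 22.5 CPM against 42.0 to 49.0 CPM. In VWF 16 h replicate 4, Pdk3 was at 17.8 CPM against 15.9 to 16.4 CPM.

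The effect of VWF differed between 3.5 h and 16 h for Slc16a1 (interaction 0.58 on the log2 scale, adjusted p = 0.0164) and Pkm (0.80, adjusted p = 4.58e-05) by the edgeR test of the interaction. The effect of LPS differed between the times for Ldha (1.18, adjusted p = 3.27e-06), Ldhb (-2.30, adjusted p = 9.36e-10), Slc16a1 (-0.82, adjusted p = 0.00113), Slc16a3 (1.96, adjusted p = 1.35e-05), Pdk1 (-1.19, adjusted p = 4.02e-06), Pdk3 (0.60, adjusted p = 0.00811) and Pkm (0.76, adjusted p = 0.000117).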

How the results depend on the processing

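Counts of the 10 genes past the test stayed within 1.5 times the reported ones with DESeq2, median-of-ratios factors, no filter and edgeR's filterByExpr. With library size alone, 6 genes were called for VWF against control at 3.5 h, all lower and 1 of them past 2-fold, 1 passed 2-fold for LPS against control at 3.5 h and 3 for LPS against control at 16 h, and 16 of 110 log2 fold changes turned sign, 3 of them called under at least 1 of the scalings: Ldhb to -0.26 and Pdk3 to -0.11 for LPS against control at 3.5 h, and Ldha to 0.25 for VWF against LPS at 3.5 h. In the same direction, it ended 9 calls of single genes and added 12. Tested against a 2-fold change, 2 genes passed for LPS against control at 16 h. With all 28 cultures in one fit, 3 genes were called for VWF against LPS at 3.5 h and 4 for VWF against control at 16 h. Outside VWF against LPS at 16 h, same-numbered cultures did not deviate together in every pair (correlations of pairs down to -0.666). For VWF against control at 3.5 h, 4 of 5 pairs had a correlation over 0.1. Fibroblast markers also followed some numbers (167 to 381 CPM in number 1 and 36.0 to 79.0 CPM in number 3). The labels do not say whether a number marks a shared preparation. With the replicate block, 3 genes were called for LPS against control at 3.5 h and 3 for VWF against LPS at 3.5 h. Leaving out 1 culture at a time gave 3 to 5 genes for VWF against LPS at 3.5 h, 1 to 4 for VWF against control at 16 h and 2 to 4 for the interaction of VWF with time. Of 24 ratio tests 12 passed, 0 with medians and 0 with the replicate block, since 5 pairs or fewer cannot pass a sign-flip test after adjustment; without 1 culture 9 to 13 passed. The lowest counts, 214 for Ldhb and 385 for Pdk3, set the precision for those genes.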
